A study of Mus musculus with 12 samples.

Results

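Creatine is made, taken up and phosphorylated by a small set of enzymes and a transporter, and 8 genes of this set were followed here in inguinal white adipose tissue (iWAT) of mice. They were taken by symbol from the 23420 genes of the deposited count table, and all 8 were found. Of these, 6 had enough reads to be tested among 15306 genes, and Ckmt1 and Ckmt2 did not. The 12 iWAT samples came from male C57BL/6 mice aged 10 weeks, and each of the 4 groups had 3 samples. Every mouse carried HIF2a loxP/loxP alleles. Those called WT had no Cre, and those called HIF2α AKO also carried Adipoq-Cre, which acts in all adipocytes, so that effects of Cre and of losing HIF2α cannot be told apart. Either genotype was held at 30 °C for 1 week (thermoneutral, TN) or exposed for 3 days to 4 to 6 °C (cold). The libraries held 22368316 to 35204631 reads on genes, and levels are given as CPM (reads of a gene scaled to a fixed library total) after TMM scaling.

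Creatine kinases move phosphate between ATP and creatine, so that phosphocreatine acts as a store and carrier of phosphate. In muscle this buffers ATP, whereas in thermogenic fat a futile cycle has been described in which creatine is phosphorylated and phosphocreatine is hydrolysed again with release of heat. In that cycle the brain-type kinase Ckb phosphorylates creatine, and the tissue-nonspecific alkaline phosphatase encoded by Alpl removes the phosphate.

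Before the members, the labels and the make-up of the libraries were examined. Epas1, which encodes HIF2α (GRCm38, chromosome 17), lay at 373, 278 and 430 CPM in TN WT, at 289, 394 and 360 in TN HIF2α AKO, at 576, 562 and 743 in cold WT and at 986, 743 and 749 in cold HIF2α AKO. The TN groups overlapped, and in cold the libraries labelled HIF2α AKO lay at or above those of WT, so that genotypes are given as labelled. Counts are summed over the whole gene and over all cells of the tissue, so they do not check the excision itself. Apart from these libraries, the paper reports lower mRNA of Hif2a, another name of Epas1, in adipose tissue of its knockout mice. Adipoq, which marks adipocytes, was present at 899 to 2467 CPM in every library. Skeletal muscle transcripts stood apart in a pair of libraries. The summed level of 12 muscle genes was 1681 CPM in replicate 1 of cold HIF2α AKO and 1919 CPM in replicate 2 of TN HIF2α AKO, against 17.7 to 117 CPM in the other 10 libraries. Replicate 3 of TN WT had 200.05 CPM of 6 epithelial genes, against 2.95 to 10.3 CPM elsewhere.

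Ckb, on the minus strand of chromosome 12 (GRCm38, 111669361 to 111672338), was the creatine kinase of this tissue by read number, and it rose with cold in both genotypes. In TN WT its level was 53.0, 51.2 and 45.4 CPM (49.9 ± 3.95, SD, n = 3). In TN HIF2α AKO it was 42.4, 53.0 and 52.0 CPM (49.1 ± 5.84, SD, n = 3). The TN groups thus overlapped, and the lowest value was in HIF2α AKO. After cold, it reached 183, 186 and 124 CPM in WT (164 ± 34.9, SD, n = 3) and 352, 191 and 218 CPM in HIF2α AKO (254 ± 86.2, SD, n = 3). All 6 cold libraries were above all 6 TN libraries, and each cold HIF2α AKO library was above each cold WT library. In bulk tissue, a change in the number of cells of a type and a change in RNA per cell cannot be told apart, here or for any gene below.

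**Figure D1:**
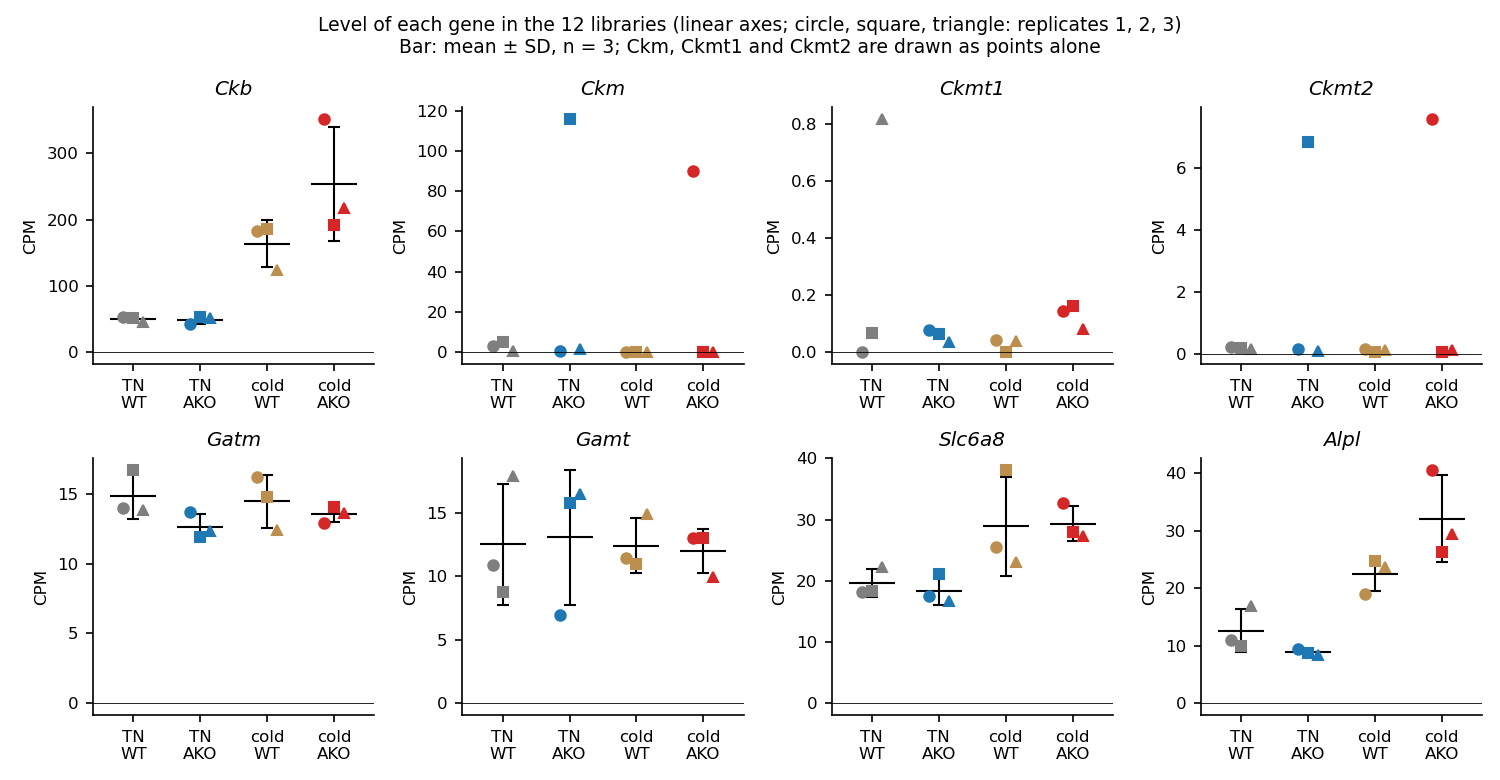
Level of each of the 8 genes in CPM after TMM scaling (linear axes), with a point for each library, by group, where bars give the mean ± SD of 3 samples and are left out for Ckm, Ckmt1 and Ckmt2. Ckb and Alpl are higher in all 6 cold libraries than in all 6 TN libraries, Gatm and Gamt are not, and Ckm and Ckmt2 are high in the same 2 libraries.

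The rise of Ckb with cold was 3.29-fold in WT (log2 fold change 1.72, SE 0.228, 95% interval 1.22 to 2.22, edgeR adjusted p = 0.00104). In HIF2α AKO it was 5.17-fold (log2 2.37, SE 0.233, interval 1.86 to 2.88, edgeR adjusted p = 0.000198). These changes were past the threshold of 0.05 under each alternative and without each library in turn, with log2 values of 1.59 to 1.89 in WT and 2.06 to 2.54 in HIF2α AKO when a library was left out. Ckb also stands in a gene list that the study drew from these same libraries, so its inclusion here is not independent of them.

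Between genotypes, Ckb did not pass the test. The fitted difference of HIF2α AKO from WT was -0.02 (log2) at TN and 0.63 in cold (SE 0.222, interval 0.142 to 1.12, edgeR unadjusted p = 0.0161, adjusted p = 1). The highest cold value belonged to replicate 1 of HIF2α AKO, which is also the cold library with muscle transcripts and the one with the highest thermogenic sum (8582 CPM over 8 genes, Ucp1 among them). Without that library the cold difference was 0.32. The cold responses of the genotypes differed by 0.65 (log2, edgeR unadjusted p = 0.0618, adjusted p = 1).

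The 250 bases upstream of the Ckb start are shown because Ckb had the largest rise with cold among the members called. They come from RefSeq (GRCm38.p6, chr12:111672339-111672588, minus strand), and capitals mark a TATAAA motif 28 bases before the start.

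Ckb upstream: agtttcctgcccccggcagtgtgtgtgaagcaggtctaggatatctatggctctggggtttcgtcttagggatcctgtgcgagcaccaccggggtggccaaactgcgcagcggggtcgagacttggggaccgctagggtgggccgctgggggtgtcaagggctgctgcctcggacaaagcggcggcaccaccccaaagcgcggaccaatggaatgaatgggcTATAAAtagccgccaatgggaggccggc

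TATAAA was found, on either strand, in 12.37% of 32851 windows of the same length upstream of annotated starts. The window held 16 CpG dinucleotides, against a median of 6 over all windows, and 62.8% G and C, against a median of 52.4%. None of the other 6 motifs searched on both strands was in it. These were ACGTG and GCGTG (cores of the hypoxia response element, in 16.57 and 28.16% of windows), TGACG (a short cAMP response element, 17.77%), AGGTCA (a nuclear receptor motif, 14.02%), TCAAGGTCA (an extended form that contains it, 0.39%) and the E-box CAGCTG (13.0%). A match describes the letters of the window and not a bound site.

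Ckm, the muscle-type kinase on the plus strand of chromosome 7 (GRCm38, 19404776 to 19422841), behaved differently. Its level was 3.06, 5.31 and 0.89 CPM in TN WT and 0.13, 0 and 0.32 CPM in cold WT, where only 3, 0 and 8 reads were counted. In the library with 0 reads, up to 3 counts are allowed by counting error, and that limit lay between 0.0764 and 0.145 CPM over all libraries. In TN HIF2α AKO it was 0.74, 116 and 1.73 CPM, and in cold HIF2α AKO 90.0, 0.24 and 0.12 CPM. The high values, 3693 and 1858 reads, came from the same 2 libraries that held the muscle transcripts.

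Among those muscle libraries Ckm amounted to 6.04% of the summed level of the 12 muscle genes in TN HIF2α AKO and to 5.35% in cold HIF2α AKO. In the TN WT libraries, with muscle sums of 66.3, 117 and 44.4 CPM, it amounted to 4.61, 4.53 and 2.0%. In the remaining TN HIF2α AKO libraries it was 2.35 and 4.32%, and in the other cold libraries at most 1.82%. Ckm thus followed the muscle genes from library to library.

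No comparison called Ckm. The fitted log2 fold change with cold was -4.27 in WT (SE 3.17, edgeR adjusted p = 0.329), where the groups did not overlap, and -0.40 in HIF2α AKO (adjusted p = 0.881). In WT it was past the threshold with both muscle libraries left out (-4.28) and when the 6 WT libraries were fitted alone (-4.28 with edgeR, -4.33 with DESeq2). Such values depend on the few reads in cold WT. The summed level of the muscle genes was also lower in cold WT (17.7 to 18.5 CPM) than in TN WT (44.4 to 117 CPM), and its part in the difference was not tested. Against WT, Ckm in HIF2α AKO had a fitted difference of 7.55 in cold (SE 2.95, edgeR unadjusted p = 0.0266, adjusted p = 1). This fell to 0.21 without replicate 1 of cold HIF2α AKO. At TN the difference was 3.68 with all libraries and -1.30 without replicate 2 of TN HIF2α AKO. The Ckm model shares 451 exonic bases with an antisense gene, A930016O22Rik, and no source used here states whether reads were counted by strand.

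**Figure D2:**
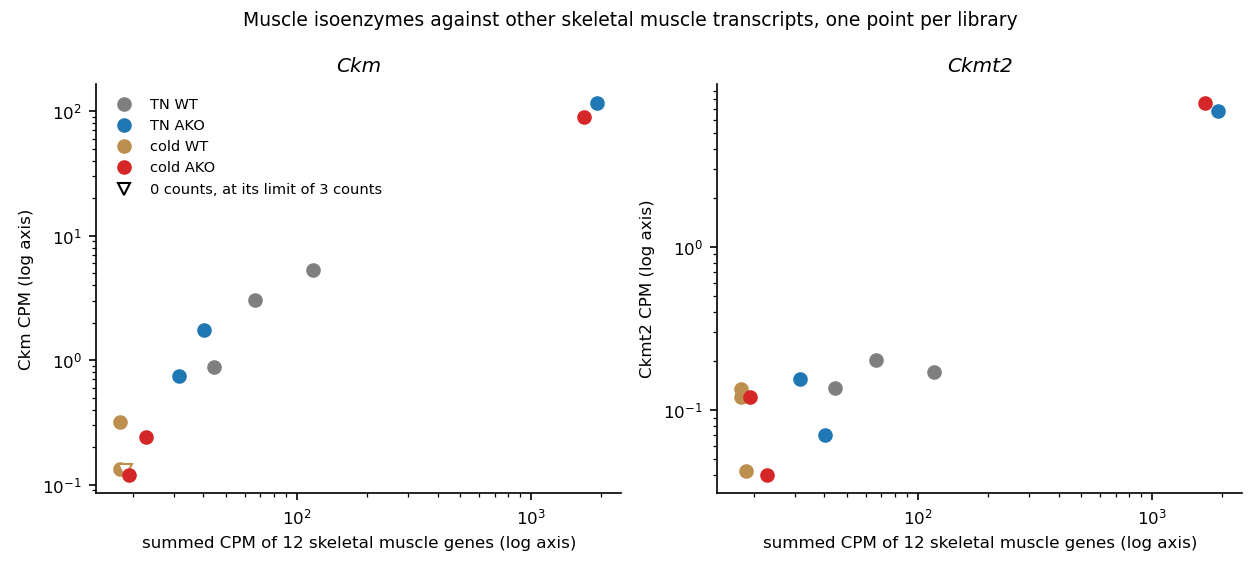
Level of Ckm (left) and Ckmt2 (right) in CPM against the summed CPM of 12 other skeletal muscle genes, both on log axes, with a point for each of the 12 libraries. The libraries with muscle sums of 1681 and 1919 CPM hold the highest Ckm and Ckmt2 levels, and a triangle marks a library with 0 counts at its limit of 3 counts.

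The mitochondrial kinases did not pass the filter on low counts and were not tested in the main model. Ckmt2, the form of striated muscle (chromosome 13, minus strand), had 218 reads in replicate 2 of TN HIF2α AKO and 157 in replicate 1 of cold HIF2α AKO, or 6.85 and 7.60 CPM. In the other 10 libraries it had between 1 and 8 reads. Its high values thus fell in the same libraries as those of Ckm, at 5.9 and 8.45% of the Ckm level. Ckmt1, the ubiquitous form (chromosome 2, plus strand), had 0, 2 and 24 reads in TN WT, 2, 2 and 1 in TN HIF2α AKO, 1, 0 and 1 in cold WT and 3, 4 and 2 in cold HIF2α AKO. The 24 reads, or 0.82 CPM, came from the TN WT library with epithelial transcripts. A difference in Ckmt1 between the groups was not detectable at this depth.

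By reads on the 4 kinase genes together, Ckb made up 90.2 to 96.1% in TN WT and 99.6 to 99.98% in cold WT. In HIF2α AKO the share was 97.8, 30.1 and 96.6% at TN and 78.3, 99.8 and 99.9% in cold. The low shares were those of the muscle libraries, in which Ckb itself was 53.0 CPM at TN and 352 CPM in cold.

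**Figure D3:**
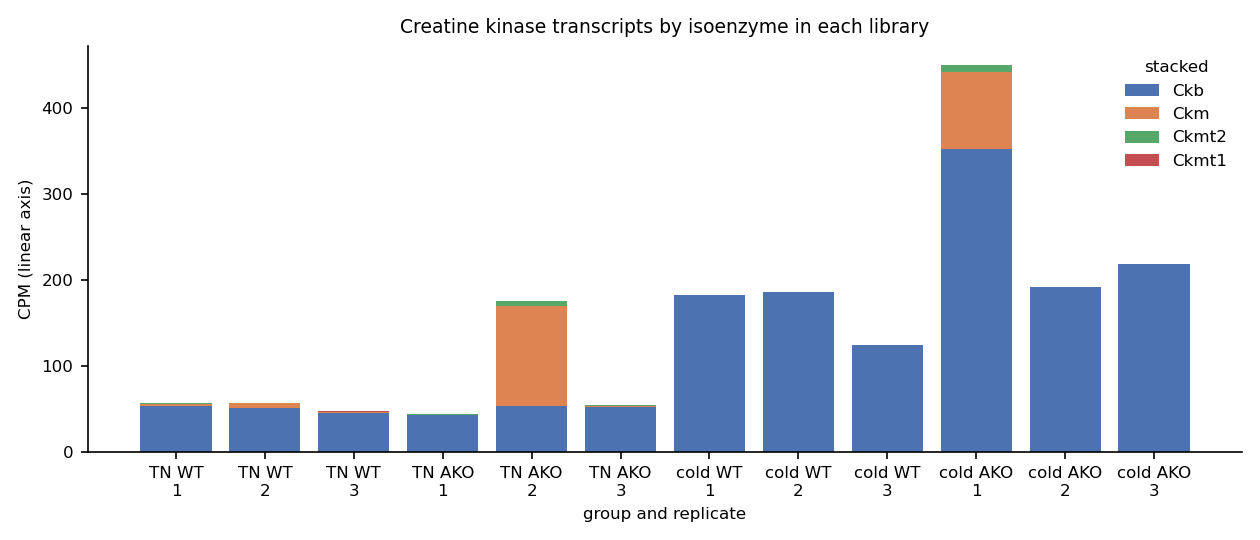
Reads on the 4 creatine kinase genes in each library, as stacked CPM on a linear axis from 0. Ckb makes up nearly all of each bar except in replicate 2 of TN HIF2α AKO and replicate 1 of cold HIF2α AKO, where Ckm adds 116 and 90.0 CPM.

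The enzymes of creatine synthesis did not pass the test in any comparison. Gatm, the amidinotransferase that forms guanidinoacetate from arginine and glycine (chromosome 2, minus strand), was at 14.0, 16.7 and 13.9 CPM in TN WT and at 16.2, 14.7 and 12.4 CPM in cold WT. In HIF2α AKO it was at 13.7, 11.9 and 12.3 CPM at TN and at 12.9, 14.1 and 13.6 CPM in cold. The cold and TN groups overlapped in both genotypes. Its log2 fold change with cold was -0.04 in WT, with an interval from -0.31 to 0.234, and 0.10 in HIF2α AKO, with an interval from -0.173 to 0.374. At TN the HIF2α AKO libraries were all below the WT libraries, with a fitted difference of -0.23 (interval -0.504 to 0.0399, edgeR unadjusted p = 0.0871, adjusted p = 0.999).

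Gamt, the methyltransferase that turns guanidinoacetate into creatine (chromosome 10, minus strand), was at 10.9, 8.74 and 17.9 CPM in TN WT and at 11.4, 10.9 and 14.9 CPM in cold WT. In HIF2α AKO its level was 6.97, 15.8 and 16.5 CPM at TN and 13.0, 13.0 and 9.98 CPM in cold. All groups overlapped, and the TN libraries of a genotype were spread more widely than those of Gatm. The log2 fold change with cold was -0.01 in WT (interval -0.729 to 0.708) and -0.13 in HIF2α AKO (interval -0.849 to 0.591). Both intervals include a change of 0.5 in either direction on the log2 scale.

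Slc6a8, the sodium-dependent creatine transporter of the cell membrane (X chromosome, plus strand), rose by a smaller amount with cold. It was at 18.2, 18.3 and 22.2 CPM in TN WT (19.6 ± 2.29, SD, n = 3) and at 25.6, 38.2 and 23.1 CPM in cold WT (28.9 ± 8.08, SD, n = 3). In HIF2α AKO it was at 17.5, 21.1 and 16.7 CPM at TN (18.4 ± 2.34, SD, n = 3) and at 32.6, 28.0 and 27.3 CPM in cold (29.3 ± 2.89, SD, n = 3). Every cold library was above every TN library, but in WT the lowest cold value was close to the highest TN value. The change was 1.48-fold in WT (log2 0.56, SE 0.18, interval 0.167 to 0.958, edgeR adjusted p = 0.0467) and 1.59-fold in HIF2α AKO (log2 0.67, SE 0.18, interval 0.274 to 1.07, edgeR adjusted p = 0.0212). The call in WT was near the threshold and was lost when any of 4 of the 6 WT libraries was left out, with a value of 0.28 without replicate 2 of cold WT. It was also lost without replicate 1, 2 or 3 of cold HIF2α AKO, or replicate 1 or 3 of TN HIF2α AKO. Those libraries are outside the comparison but enter the shared model. The call in HIF2α AKO was lost in 3 of the 6 fits without a HIF2α AKO library, with values from 0.59 to 0.78 over the 6. The difference between genotypes was 0.02 in cold (interval -0.374 to 0.413) and -0.09 at TN (interval -0.484 to 0.307).

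Alpl, on the minus strand of chromosome 4 (GRCm38, 137741733 to 137796384), rose with cold in both genotypes, and its position relative to WT turned between the temperatures. At TN it was at 11.0, 9.9 and 17.0 CPM in WT (12.6 ± 3.81, SD, n = 3) and at 9.43, 8.76 and 8.41 CPM in HIF2α AKO (8.87 ± 0.516, SD, n = 3). In cold it was at 19.1, 24.7 and 23.7 CPM in WT (22.5 ± 2.98, SD, n = 3) and at 40.6, 26.3 and 29.4 CPM in HIF2α AKO (32.1 ± 7.53, SD, n = 3). The HIF2α AKO libraries thus lay below all WT libraries at TN and above all WT libraries in cold. The highest TN WT value belonged to the library with epithelial transcripts, and the highest cold value to the cold library with muscle transcripts.

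With cold, Alpl rose 1.78-fold in WT (log2 0.83, SE 0.213, interval 0.361 to 1.30, edgeR adjusted p = 0.0204) and 3.61-fold in HIF2α AKO (log2 1.85, SE 0.219, interval 1.37 to 2.34, edgeR adjusted p = 0.000369). The call in WT was lost when any of 4 of the 6 WT libraries was left out, with values from 0.67 to 1.10, whereas the call in HIF2α AKO was kept without each library. The difference between genotypes was -0.51 at TN (interval -0.985 to -0.036, edgeR unadjusted p = 0.0372, adjusted p = 0.999) and 0.51 in cold (interval 0.0489 to 0.977, edgeR unadjusted p = 0.0332, adjusted p = 1). It was -0.24 at TN without replicate 3 of TN WT and 0.31 in cold without replicate 1 of cold HIF2α AKO. The responses to cold differed by 1.02 (log2, SE 0.302, interval 0.36 to 1.69, edgeR unadjusted p = 0.00597), but not after adjustment over all genes (adjusted p = 1).

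Alpl has starts far apart within its gene, and a count per gene does not say which was used. The 250 bases upstream of each RefSeq start (GRCm38.p6, minus strand) are shown for this reason. The first window, chr4:137796385-137796634, lies upstream of the gene, and the second, chr4:137766476-137766725, lies within it in an intron of the longer transcripts. Capitals mark the motifs found.

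Alpl upstream 1: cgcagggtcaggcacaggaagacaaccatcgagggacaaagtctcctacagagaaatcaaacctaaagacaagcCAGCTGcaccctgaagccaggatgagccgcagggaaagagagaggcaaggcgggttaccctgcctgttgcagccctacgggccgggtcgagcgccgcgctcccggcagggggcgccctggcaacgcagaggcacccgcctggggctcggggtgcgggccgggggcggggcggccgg

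Alpl upstream 2: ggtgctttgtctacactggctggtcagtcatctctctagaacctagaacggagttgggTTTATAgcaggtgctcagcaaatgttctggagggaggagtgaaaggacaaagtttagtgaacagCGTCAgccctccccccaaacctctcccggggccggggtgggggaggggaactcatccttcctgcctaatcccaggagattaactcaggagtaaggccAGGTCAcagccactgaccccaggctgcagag

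The first window held the E-box CAGCTG 176 bases before the start, 20 CpG dinucleotides and 68.4% G and C. In the second, TATAAA was found on the opposite strand 192 bases before the start, TGACG on the opposite strand at 128 bases, and AGGTCA at 31 bases, with 4 CpG dinucleotides and 56.0% G and C. Neither window held ACGTG or GCGTG. Among the other members with a window, ACGTG was found for Gatm and GCGTG for Ckm and Gamt.

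**Figure D4:**
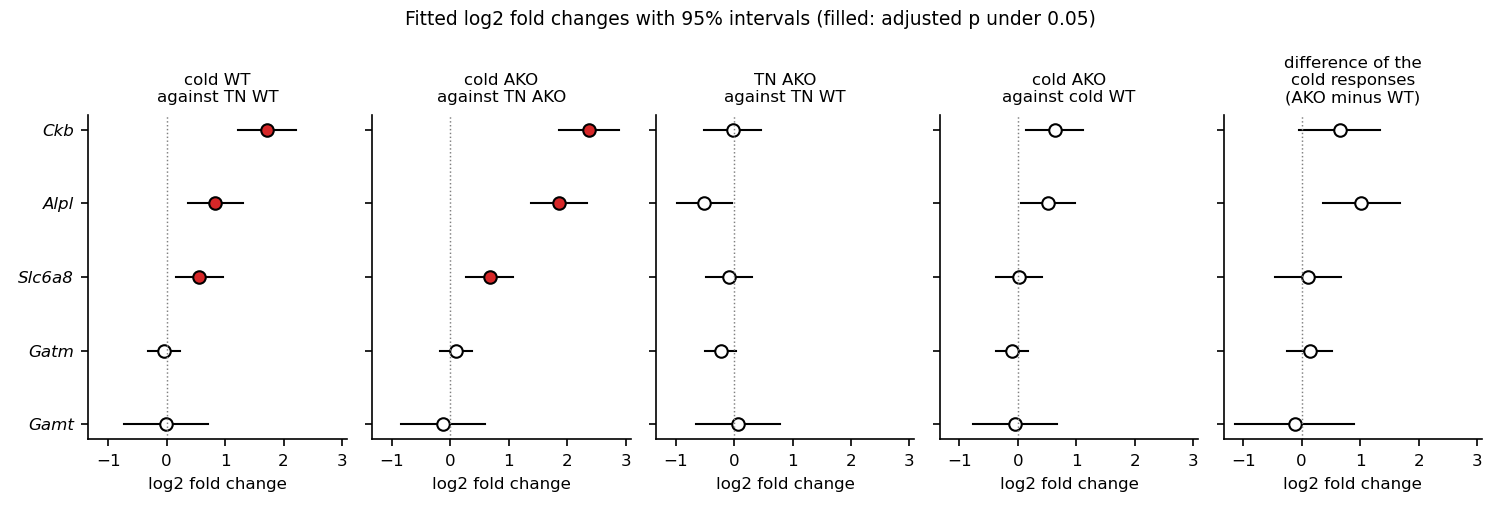
Fitted log2 fold changes with 95% intervals for the 5 tested members other than Ckm, in the 4 comparisons and for the difference between the cold responses (HIF2α AKO minus WT), where filled points have an adjusted p under 0.05. Ckb, Alpl and Slc6a8 are filled in both cold comparisons, and no point is filled in the others.

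Counted over the members, 3 of the 6 tested were called higher with cold in WT and none lower, where 21.3% of all tested genes were called and 15.6% were called higher. In HIF2α AKO the same 3 genes, Ckb, Alpl and Slc6a8, were called higher with cold and none lower, where 27% of all genes were called and 15.6% were called higher. Both comparisons thus have a large background of called genes. The groups did not overlap for 4 of 6 members in WT (Ckm was lower) and for 3 of 6 in HIF2α AKO, where this held for 42% and 50.5% of all genes. The median log2 fold change of the 6 was 0.276 in WT and 0.385 in HIF2α AKO, beside -0.0338 and -0.051 over all tested genes.

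Between genotypes 0 of 6 members were called by edgeR at either temperature, where 0.00653% of all genes, a single gene, were called in each. At an unadjusted p under 0.05 there was 1 member at TN (Alpl, lower), where 2.91% of all genes passed. In cold there were 3 (Ckb, Alpl and Ckm, higher), where 2.95% of all genes passed. The study's thresholds were an unadjusted p under 0.15 together with a log2 fold change beyond 0.2 in size. The study gave them with DESeq2 for cold HIF2α AKO against cold WT. Here they were applied to edgeR values, also at TN and for the difference of the cold responses. With these thresholds, 3 members passed in each genotype comparison, against 8.63% of genes at TN and 8.98% in cold. They were Alpl, Gatm and Ckm at TN, and Ckb, Alpl and Ckm in cold. In both of these counts and in the unadjusted count in cold, Ckm rested on the muscle library of the comparison. Without that library its difference was -1.30 at TN and 0.21 in cold. The groups did not overlap for 2 of 6 members at TN (Alpl and Gatm, both lower), where this held for 7.69% of genes, and for 2 of 6 in cold (Ckb and Alpl, both higher), where it held for 7.53%. For the difference of the cold responses, 0 of 6 members and 0% of genes passed the adjusted threshold, at an unadjusted p under 0.05 it was 1 member (Alpl) and 2.14% of genes, and with the study's thresholds 2 members (Alpl and Ckb) and 8.81% of genes. For Alpl the groups did not overlap at either temperature and differed in opposite directions, which in either order held for 0.196% of genes. DESeq2 and voom also called 0 members in these 3 comparisons, although DESeq2 gave no adjusted p for Ckm.

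Levels were compared between members per kilobase of exon. In cold WT, Ckb was highest at 56.7 ± 12.0 CPM per kb (SD, n = 3), followed by Gamt at 8.59 ± 1.49. Alpl at 5.57 ± 0.739, Slc6a8 at 5.55 ± 1.55 and Gatm at 4.82 ± 0.633 came next and overlapped each other. Ckmt2, Ckm and Ckmt1 were lowest, at 0.0668, 0.0522 and 0.0113 CPM per kb. In TN WT, Ckb was again highest at 17.2 ± 1.36 CPM per kb, and Gamt followed at 8.67 ± 3.31. Gatm at 4.95 ± 0.542 was above Slc6a8 at 3.76 ± 0.44 and Alpl at 3.13 ± 0.944, and the last pair overlapped and changed places when the length of the longest transcript was used. In cold Alpl was not separated from its neighbours Slc6a8 and Gatm by their spread, but its range ended below that of Gamt. Per kilobase of the longest transcript, Alpl and Gatm were at 8.9 ± 1.18 and 6.05 ± 0.796 in cold WT (SD, n = 3). In TN WT they were at 5.01 ± 1.51 and 6.21 ± 0.681. Whether the spreads of Alpl and Gatm overlapped thus depended on the length used.

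In HIF2α AKO, Ckb stood at 17.0 ± 2.02 CPM per kb at TN and at 87.8 ± 29.8 in cold (SD, n = 3). Gamt stood at 9.06 ± 3.68 and 8.31 ± 1.21, Gatm at 4.21 ± 0.308 and 4.51 ± 0.191, Slc6a8 at 3.53 ± 0.448 and 5.63 ± 0.555, and Alpl at 2.2 ± 0.128 and 7.95 ± 1.87. In cold HIF2α AKO the ranges of Alpl (6.51 to 10.1 CPM per kb) and Gamt (6.91 to 9.02) overlapped, whereas those of Alpl and Slc6a8 (5.24 to 6.26) did not. Ckm is left out of this order because its means of 13.6 and 10.3 CPM per kb came from single libraries.

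The genes around the cycle were taken from 6 lists with 28 genes, of which 27 were tested. In WT, 13 were called higher with cold and none lower, and in HIF2α AKO 13 were called higher and 1 lower, beside the same 15.6% of all genes called higher in each. The median log2 fold change over the 27 was 0.754 in WT and 0.704 in HIF2α AKO. None was called between genotypes.

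Adenylate kinases, which exchange phosphate among adenine nucleotides, were called higher with cold for 2 of 3 genes in each genotype. Ak1, the cytosolic form, had a log2 fold change of 2.06 in WT (SE 0.374, edgeR adjusted p = 0.0043) and 2.12 in HIF2α AKO (SE 0.371, adjusted p = 0.00283). Ak3, of the mitochondrial matrix, had 1.12 (adjusted p = 0.0164) and 1.34 (adjusted p = 0.00655), and its call in WT was lost in 3 of 6 fits without a library (log2 0.90 to 1.37). ATP and ADP carriers of the inner membrane and the channels of the outer membrane, through which mitochondrial ATP reaches the cytosol, were called higher for 5 of 5 genes in both genotypes. In WT the log2 fold change was 1.10 for the carrier Slc25a5 (SE 0.149, adjusted p = 0.00108). For the channels it was 0.99 for Vdac1 (adjusted p = 0.011), 0.85 for Vdac2 (adjusted p = 0.00207) and 0.64 for Vdac3 (adjusted p = 0.0118). The values in HIF2α AKO were 1.18, 1.01, 1.09 and 0.72. The WT calls of Vdac1 and Vdac3 were each lost in 1 of 6 fits without a library, with 0.81 and 0.55 without replicate 2 of TN WT.

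Of the genes for the supply of arginine, ornithine and glycine, 1 of 6 tested was called higher in each genotype, with a median of -0.007 in WT. That gene was Shmt1, which interconverts serine and glycine in the cytosol, with 1.02 in WT (SE 0.208, edgeR adjusted p = 0.00737) and 1.35 in HIF2α AKO (SE 0.21, adjusted p = 0.00148). Of 6 genes of the methyl donor cycle, which provides the methyl group used by Gamt, 2 were called higher in WT and 1 in HIF2α AKO. The S-adenosylmethionine synthetase Mat2a had 0.47 in WT (adjusted p = 0.0285) and -0.18 in HIF2α AKO (adjusted p = 0.316), and the nicotinamide methyltransferase Nnmt had 0.98 (adjusted p = 0.041) and 0.70 (adjusted p = 0.0982). The gene called in HIF2α AKO was Gnmt (log2 0.82, adjusted p = 0.0255), named after its value was seen. The calls of Mat2a and Nnmt in WT were lost with edgeR on 6 libraries (0.46 and 0.98) and each in 4 of 6 fits without a library (0.34 to 0.59 and 0.73 to 1.42). That of Mat2a was also lost with upper quartile scaling (0.33) and without the muscle and epithelial libraries (0.48), and that of Nnmt without the muscle libraries (0.98). In HIF2α AKO, Nnmt was past the threshold on 6 libraries (0.72 with edgeR) and without the muscle and epithelial libraries (0.93). The genotypes' responses were not called different for any of these genes. For Mat2a the HIF2α AKO libraries lay above all WT libraries at TN, with a difference of 0.52 (edgeR unadjusted p = 0.00205, adjusted p = 0.999). Its responses to cold differed by -0.64 (edgeR unadjusted p = 0.00495), which did not pass after adjustment.

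Phosphate and pyrophosphate partners of Alpl gave 2 of 5 genes called higher in WT, and 3 higher and 1 lower in HIF2α AKO. Phospho1, a phosphatase that acts beside alkaline phosphatase in mineralising tissue, had the largest change of all 27 genes, at 13.8-fold in WT (log2 3.79, SE 0.307, edgeR adjusted p = 0.000116) and 25.8-fold in HIF2α AKO (log2 4.69, SE 0.318, adjusted p = 2.01e-05). Its difference between genotypes in cold was 0.87 (edgeR unadjusted p = 0.00707, adjusted p = 1), and 0.50 without replicate 1 of cold HIF2α AKO. The phosphate importer Slc20a2 had 0.75 in WT (adjusted p = 0.00511) and 0.77 in HIF2α AKO (adjusted p = 0.00363). Named after their values were seen, the other 2 genes called in HIF2α AKO were Ank, of pyrophosphate export (log2 0.84, adjusted p = 0.0359), and Enpp1, which makes extracellular pyrophosphate (log2 -0.94, adjusted p = 0.0365). Of 2 related transporters, the taurine transporter Slc6a6 was called higher, with 0.82 in WT (adjusted p = 0.00404) and 0.69 in HIF2α AKO (adjusted p = 0.00791), where the call was lost without the muscle libraries (0.63).

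**Figure D5:**
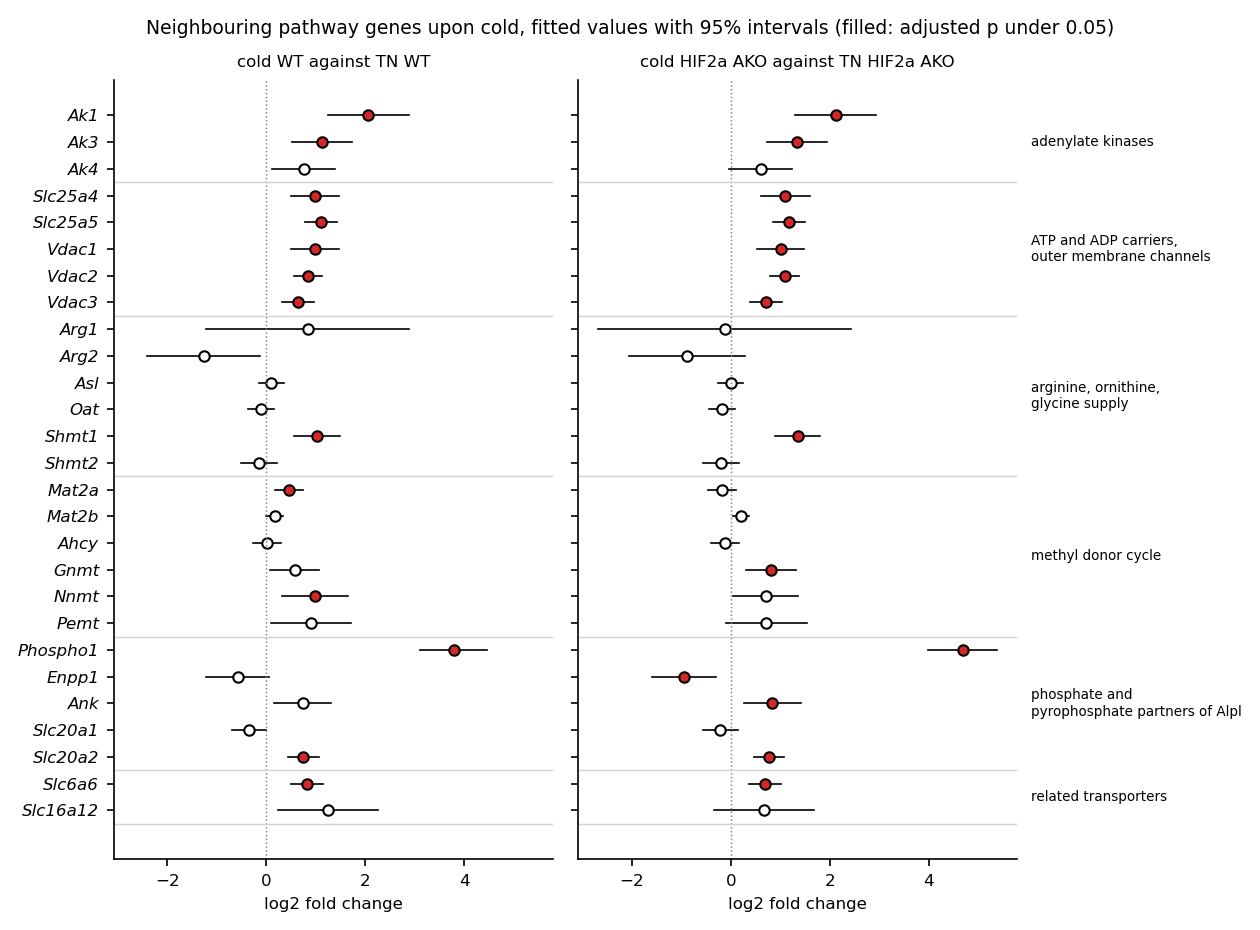
Fitted log2 fold changes with cold, with 95% intervals, for 27 tested genes of the 6 lists in WT (left) and HIF2α AKO (right), where filled points have an adjusted p under 0.05. Phospho1 has the largest change at 3.79 and 4.69, and all 5 carriers and channels are filled in both panels.

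The genes whose pattern over the 12 libraries was most like that of each tested member were found by the root mean square difference of log2 CPM after each gene's mean was subtracted. For Ckb they were Impa2 at 0.169, Slmo2 at 0.218 and Ppif at 0.222, where the median over all genes was 1.11. For Alpl they were Cxadr at 0.194, Sirt3 at 0.207 and Tomm5 at 0.21 (median 0.806), and for Slc6a8 they were Nutf2 at 0.137, Nmb at 0.146 and Zfp691 at 0.15 (median 0.463). The nearest genes to Ckm were the muscle genes Pvalb at 0.859, Actn3 at 0.876 and Atp2a1 at 0.976, all from the marker list (median 3.24). The nearest genes to Gatm and Gamt were Ddx19b, Ssbp4 and Casp6 at 0.089 to 0.0902 (median 0.317) and Bmp3, Prkcdbp and Col15a1 at 0.156 to 0.162 (median 0.467). These are descriptions over libraries that share their groups.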

How the data were processed

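Whole read counts per gene, as deposited by the authors, were used for 12 libraries of mouse iWAT, 3 samples in each group. According to the submitters' processing notes and the paper's methods, reads were trimmed with Trim Galore 0.4.4, aligned with STAR 2.6.1d to GRCm38 and counted with HTSeq 0.13.5. The annotation and the strand setting are not given in the sources used here. The table of the series equalled the 12 files of single libraries. Its 5 tallies of reads outside genes (21.9 to 27.0% of the reads listed) were left out of the totals.

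The software was edgeR 4.0.16 (R 4.3.3), with DESeq2 1.42.0 and limma 3.58.1 as alternatives, and Python 3.11.15 for annotation and plots. filterByExpr (minimum count 10, minimum total 15) kept 15306 genes. A quasi-likelihood model of 4 groups was fitted after TMM scaling, and Benjamini-Hochberg adjustment covered the whole set of tested genes, with a threshold of 0.05. The labels number the samples of a group without naming animals, so p-values measure the spread between these samples, which may be technical. On simulated counts with this design (cold WT against TN WT, 15306 genes), the recovered share was 7 of 83 for log2 changes of 0.5, 42 of 59 for changes of 1 and 58 of 58 for changes of 2, with 0 false calls among 107. The simulation gave every gene the same spread and changed few genes, whereas 3259 genes were called in the real comparison. The adjustment is then less strict, so these shares do not give the recovery in the real cold comparisons. Intervals have a level of 95%, and limits for 0 counts cover counting error only.

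The 8 members were given by symbol. These members, the 16 pathway and marker lists and the rule for named genes were chosen with earlier results of these data known. The rule names the members and Epas1, up to 4 genes of each pathway list with an adjusted p under 0.05 in cold WT against TN WT or between genotypes, and the 3 genes nearest to each tested member. Positions and exon lengths came from GENCODE for GRCm38, and upstream windows from RefSeq (7 of the 8 members had one). Alternatives were RLE and upper quartile scaling, no filter, DESeq2, voom, fits of 6 libraries, a replicate block, the study's thresholds, the length of the longest transcript and each library left out. Leaving out the muscle libraries together with the epithelial library was added after seeing the data. A gene of the lists is not reported here.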

Additional observations from a re-analysis of the deposited data

Results flagged for a closer look

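Alpl was flagged because the difference between genotypes took opposite directions at the 2 temperatures. All 3 HIF2α AKO libraries were below the WT libraries at TN and above them in cold. Groups that did not overlap at either temperature and differed in opposite directions, in either order, were found for 30 of 15306 tested genes (0.196%). The test of the difference itself, the interaction of genotype and temperature, gave 1.02 on the log2 scale (edgeR unadjusted p = 0.00597, adjusted p = 1), so that it did not pass after adjustment. It was 0.75 without replicate 3 of TN WT, which had the highest TN value and holds epithelial transcripts, and at most 1.18 when any other library was left out. The part of those transcripts in the difference was not tested.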

How the results depend on the processing

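The direction and the call of Ckb with cold, and the absence of calls between genotypes at an adjusted p, were kept under every alternative run. The study's thresholds, applied to edgeR values, gave 3, 3 and 2 members for TN genotype, cold genotype and interaction, with Ckm among those at TN and in cold. Leaving out a library gave 1 to 3 called members with cold in WT and 2 to 3 in HIF2α AKO, and 1 (Ckb) was called in WT without replicate 2 of cold WT or replicate 1 or 2 of TN WT. Over all genes, calls with cold fell from 3259 in WT to 1752 with edgeR on 6 libraries and to 1381 to 1810 without replicate 3 of cold WT or replicate 1 or 2 of TN WT. In HIF2α AKO they fell from 4138 to 1514 without the muscle libraries, to 1834 without the epithelial library as well, and to 1613, 1735 and 2450 without replicate 1 of cold or replicate 1 or 3 of TN HIF2α AKO. Between genotypes DESeq2 called 11 genes at TN and 7 in cold (13 on 6 libraries), none of them a member, and voom 2 in cold. The following values turned sign. Gamt with cold in WT was 0.054 with voom, 0.010 with the replicate block and 0.33 without the muscle and epithelial libraries. Without the muscle libraries the TN genotype difference was -1.31 for Ckm (-1.74 without the epithelial library as well) and -0.088 for Gamt, and the cold genotype difference of Slc6a8 was -0.064 in both. Over fits without a library, Ckm ranged from -7.74 to 4.59 with cold in HIF2α AKO, from -1.30 to 4.28 at TN and from -3.47 to 8.86 for the interaction. Ranges for Gamt were -0.23 to 0.34 and -0.43 to 0.071 with cold in WT and HIF2α AKO, -0.13 to 0.41 and -0.12 to 0.10 between genotypes at TN and in cold, and -0.46 to 0.10 for the interaction. Those of Slc6a8 were -0.12 to 0.30 (cold genotype), -0.20 to 0.012 (TN genotype) and -0.033 to 0.41 (interaction), those of Ckb and Epas1 at TN -0.085 to 0.073 and -0.21 to 0.10, and that of Gatm with cold in WT -0.13 to 0.061. The cause was not tested, and DESeq2 gave no adjusted p for Ckm in 8 fits. The cold call of Slc6a8 in WT was also lost with upper quartile scaling (0.43), no filter (0.53), voom (0.54), 6 libraries (0.56 with edgeR and with DESeq2) and without the muscle libraries (0.56), and in HIF2α AKO without the muscle libraries (0.70). That of Alpl in WT was lost with edgeR on 6 libraries (0.83). Upper quartile scaling moved the median of all genes with cold from -0.0338 to -0.169 in WT, and Ckb and Alpl stayed called. Per length of the longest transcript, Alpl and Slc6a8 changed places in TN WT, and Alpl moved to 2 and Ckm to 4 in cold HIF2α AKO. The separation of Alpl from Gatm in WT also depended on the length used. Of 18 correlations of deviations examined for pairing by replicate number, 5 were above 0.1, over a range of -0.43 to 0.39. Whether samples with the same replicate number belong together was not tested. With the replicate block 2 members were called with cold in WT, where Slc6a8 (0.54) was lost. Ckmt1 and Ckmt2 did not pass the filter on low counts, so the main model did not test them, and without the filter neither was called in any comparison. Changes near 0.5 on the log2 scale were seldom recovered from simulated counts, in which far fewer genes were called than with cold in these data.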

Other observations

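The thermogenic and other cell markers give the setting in which the creatine genes were measured. Of 8 thermogenic genes, 7 were called higher with cold in WT and 8 in HIF2α AKO, and their summed level rose from 28.4 to 90.6 CPM in the TN libraries to 3350 to 4864 CPM in cold WT and 5622 to 8582 CPM in cold HIF2α AKO. Of 6 genes listed for white adipocytes, among them Adipoq, 2 were called higher in WT and 0 in HIF2α AKO. Fitted values were above 0 for 6 of them in WT (median log2 0.936) and 5 in HIF2α AKO (median 0.673), and 0 were called for the interaction. Their summed level was 2604 to 5788 CPM in TN WT and 6122 to 12511 CPM in cold WT. In HIF2α AKO it was 3794 to 7021 CPM at TN and 7008 to 8426 CPM in cold. Over all 15306 tested genes, 2389 were called higher and 870 lower in WT, and 2381 higher and 1757 lower in HIF2α AKO. Lymphocyte markers were called lower for 1 of 6 in WT and 2 of 6 in HIF2α AKO, progenitor markers for 0 and 3 of 6, and epithelial markers for 1 and 0 of 6. The epithelial sum was 200.05 CPM in replicate 3 of TN WT, but 7.26 and 10.3 CPM in replicates 1 and 2. In cold WT it was 4.71 to 9.36 CPM. Schwann cell and nerve markers were called higher for 1 of 6 in each genotype, and endothelial markers for 0 and 1 of 6. No skeletal muscle, smooth muscle and mural or myeloid marker was called with cold, and no marker of any of the 10 lists was called between genotypes by edgeR.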
